A study of Danio rerio with 6 samples.

Results

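The genes described here encode secreted proteins of the extracellular matrix other than collagens. They are the fibronectin pair fn1a and fn1b, the follistatin-like pair fstl1a and fstl1b, the cross-linking enzyme loxl1, the tenascin tnc and the calcium-binding glycoprotein sparc. These 7 genes, out of 32520 in the count table, were taken by symbol, and each symbol had a single row. They were chosen because fn1b, fstl1a and loxl1 stood higher in both cyclopamine libraries than in untreated neural crest, so their values in that comparison are given as a description without a test.

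Polyadenylated RNA was sequenced from cells that had been dissociated from the trunks of wild-type zebrafish embryos and sorted by fluorescence; all embryos were 24 hours old after fertilization and had been reared at 28 °C. The 3 groups had 2 libraries each. They were trunk neural crest after exposure of the embryos to 100 µM cyclopamine, which began at 50% epiboly and lasted until collection (replicates 3 and 4), slow-twitch muscle without treatment (replicates 1 and 2) and neural crest without treatment (replicates 1 and 2). Crest cells were sorted by the sox10:mRFP transgene, and slow muscle by prdm1a:eGFP, which also marks the muscle pioneers; per the series' design text the embryos carried both transgenes. Cyclopamine blocks Smoothened, the membrane protein that passes Hedgehog signals into the cell. For the untreated crest libraries the labels conflict, since both titles say slow-twitch beside the crest abbreviation; the tissue label, which gives crest cells, was followed. The labels name no vehicle for the untreated embryos. They also do not say whether replicates were separate pools, and the p-values therefore cover only the spread between these libraries, which may be technical.

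Fibronectin is a large dimeric glycoprotein that cells assemble into fibrils through integrin receptors that bind its RGD motif. In the zebrafish trunk it lines the boundaries between somites and the paths along which mesoderm and crest cells move. Sparc and the follistatin-like proteins share a calcium-binding module and act around cells rather than as scaffolds, tenascin C modulates adhesion to fibronectin, and lysyl oxidases cross-link collagen and elastin.

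Libraries held 15355583 to 26441238 counts over 13249 to 17275 detected genes. The fewest genes, 13249, were detected in cyclopamine replicate 4, which held 18781774 counts. Cyclopamine replicate 3 had 16278 detected genes, and untreated replicates 1 and 2 had 15591 and 15281, with 17504692 and 15355583 counts. Levels are CPM, the counts per 1000000 of the TMM-normalised library size, and are not corrected for gene length. By counting error alone, a gene without counts could lie at up to 0.127 to 0.177 CPM (3 counts), depending on the library. The 9 crest markers, sox10 and foxd3 among them, were all detected in the 4 crest libraries and summed to 5865 and 7010 CPM in cyclopamine crest, 245 and 251 CPM in slow muscle and 5769 and 5662 CPM in untreated crest. The largest was sox10, at 2616 and 4029 CPM in cyclopamine crest. Both cyclopamine libraries stood above both untreated ones in 4 of the 9 (14.6% of all genes). In 2 (16.6% of all genes) they stood below, foxd3 (122 and 81.9 CPM against 220 and 170 CPM) and tfap2e (147 and 63.0 CPM against 200 and 199 CPM). mitfa had 393 and 45.9 CPM against 283 and 268 CPM. The slow muscle list was led by the slow myosin gene smyhc1, at 45363 and 21652 CPM in slow muscle.

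fn1b, one of the fibronectin genes, had 157 and 314 CPM in cyclopamine crest, 269.9 and 221 CPM in slow muscle and 41.0 and 48.0 CPM in untreated crest. Cyclopamine and slow muscle libraries overlapped with each other, and all of them stood above both untreated libraries. The mean in cyclopamine crest was 235 ± 111 CPM against 44.5 ± 4.96 CPM in untreated crest (SD, n = 2 each), a 5.29-fold difference of means. In counts these values rest on 3466 and 6683 reads in the cyclopamine libraries against 777 and 811 in the untreated ones. The fitted log2 difference was 2.40 with both cyclopamine libraries and 1.82 without cyclopamine replicate 4, the library with the higher level.

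fn1a, its paralogue, had 136 and 217 CPM in cyclopamine crest, 265 and 287 CPM in slow muscle and 66.7 and 96.7 CPM in untreated crest. The 3 groups were ordered without overlap, with slow muscle highest and untreated crest lowest. The cyclopamine mean of 177 ± 57.3 CPM was 2.16 times the untreated mean of 81.7 ± 21.2 CPM (SD, n = 2 each). The fitted log2 difference was 1.11, and 0.74 without cyclopamine replicate 4.

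**Figure D1:**
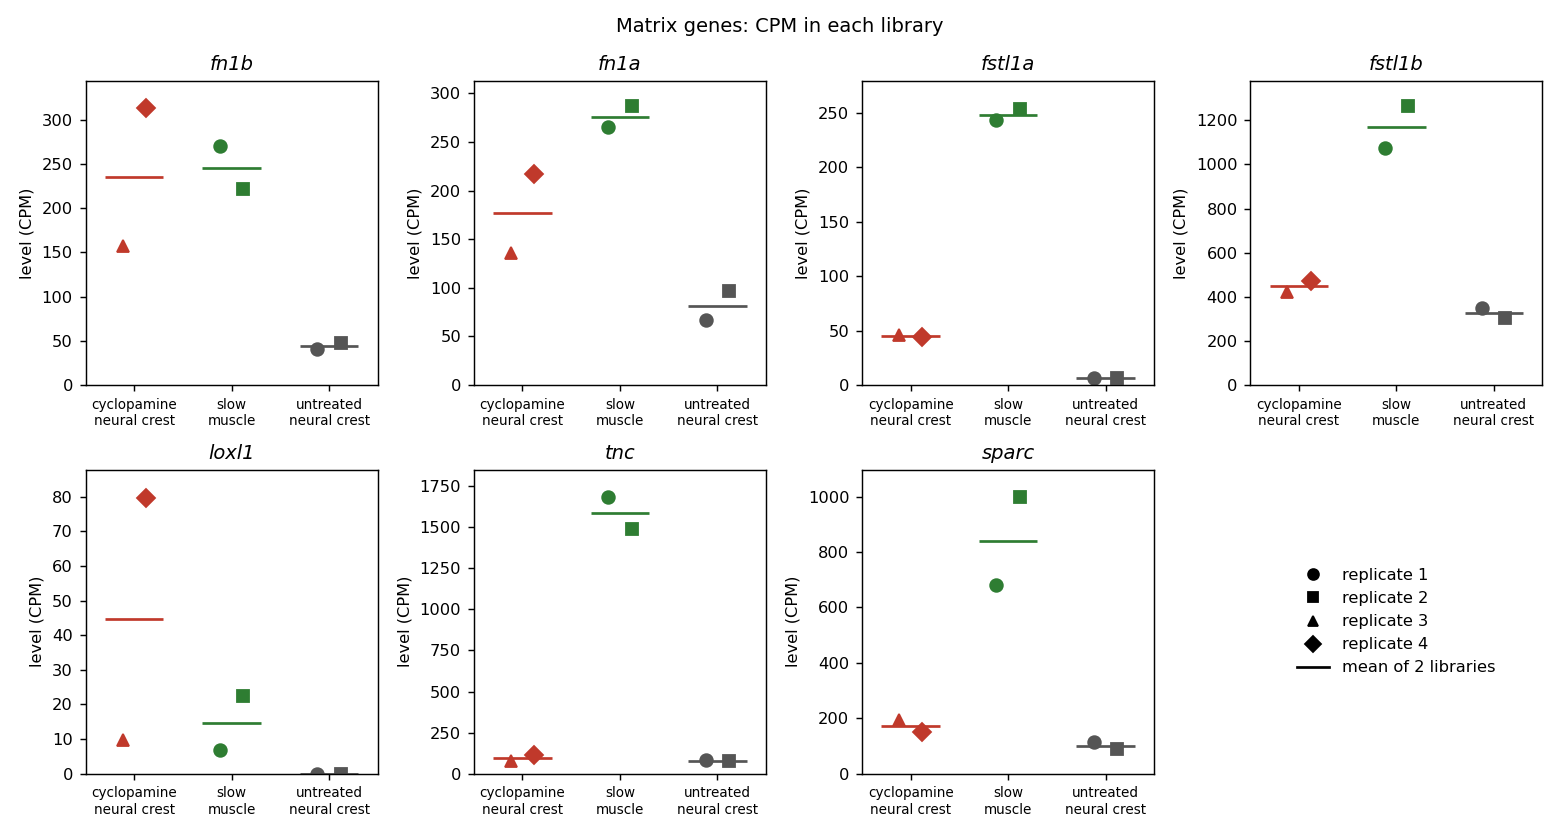
Level of each of the 7 matrix genes (vertical axis, CPM from 0) in each library, with cyclopamine neural crest, slow muscle and untreated neural crest from left to right; marks are libraries, shaped by replicate number, and lines are means of 2 libraries. Both cyclopamine libraries lie above both untreated libraries in every panel except tnc, where replicate 3 (80.4 CPM) lies between the untreated libraries (81.4 and 76.9 CPM), and loxl1 is at 0 in untreated crest.

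The balance within the fibronectin pair also differed between libraries. fn1b made up 53.6% and 59.1% of the pair's counts in cyclopamine crest, 50.5% and 43.6% in slow muscle, and 38.1% and 33.2% in untreated crest. The Wilson 95% intervals, which cover counting error only, were 52.3% to 54.8% and 58.2% to 60.0% in the cyclopamine libraries and 36.0% to 40.2% and 31.3% to 35.1% in the untreated ones. The share was thus highest in the cyclopamine libraries and lowest in the untreated ones, with no overlap among the 3 groups. fn1b was a reason for the choice of members and fn1a was not. A higher share in cyclopamine than in untreated crest was thereby favoured by the choice, and nothing is read from it. The shares and the size of their differences depend on the lengths of the transcripts, while the order of the libraries does not. How reads that fit both copies of a gene were counted is not stated, and its part in the shares was not tested.

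fstl1a, which encodes a secreted glycoprotein related to follistatin, had 46.1 and 43.9 CPM in cyclopamine crest, 243 and 253 CPM in slow muscle and 6.59 and 6.45 CPM in untreated crest. The groups were ordered without overlap, and the libraries within each group lay close together. The difference of means was 6.90-fold between cyclopamine and untreated crest, the largest among the 6 members with counts in untreated crest. These levels rest on 1019 and 934 counts in the cyclopamine libraries, against 125 and 109 in the untreated ones. Its fitted log2 difference was 2.79, and it ranged from 2.76 to 2.82 when any 1 of the 6 libraries was left out.

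fstl1b, the other copy, was far more evenly spread, with 422 and 471 CPM in cyclopamine crest, 1076 and 1265 CPM in slow muscle and 349.6 and 305 CPM in untreated crest. Cyclopamine libraries again stood above the untreated ones, but by 1.36-fold in the means. fstl1a made up 9.85% and 8.52% of the pair's counts in cyclopamine crest, 18.4% and 16.7% in slow muscle and 1.85% and 2.07% in untreated crest. In this pair slow muscle had the highest share, whereas in the fibronectin pair the cyclopamine libraries did. fstl1a too was a reason for the choice and fstl1b was not, so nothing is read from its higher share in cyclopamine than in untreated crest.

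**Figure D2:**
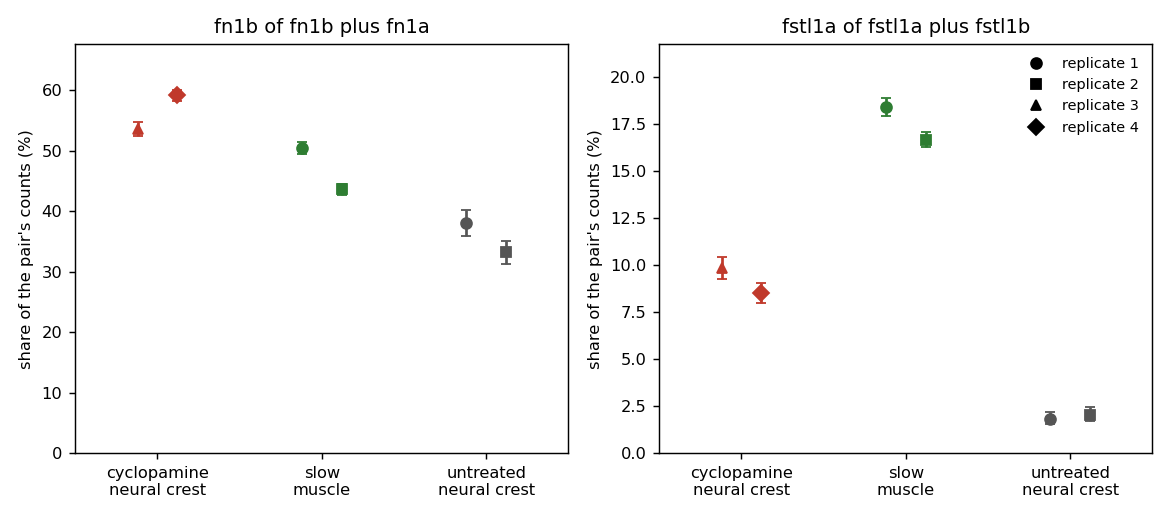
Share of fn1b in the summed counts of fn1b and fn1a (left) and of fstl1a in those of fstl1a and fstl1b (right), in percent, per library and group; bars are Wilson 95% intervals, which cover counting error only. The shares in cyclopamine crest (53.6% and 59.1%, and 9.85% and 8.52%) lie above those in untreated crest (38.1% and 33.2%, and 1.85% and 2.07%) in both pairs. fn1b and fstl1a were reasons for the choice of members from that contrast, so nothing is read from this order.

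loxl1, a lysyl oxidase that in mice is needed for elastic fibre upkeep, had 9.83 and 79.7 CPM in cyclopamine crest, 6.91 and 22.4 CPM in slow muscle and 0 counts in both untreated libraries. It was detected in all 4 libraries outside untreated crest, and the cyclopamine and slow muscle libraries overlapped. The cyclopamine mean of 44.7 ± 49.4 CPM (SD, n = 2) was carried by replicate 4, with 1696 counts against 217 in replicate 3. With the untreated libraries taken at 3 counts each, the cyclopamine mean was at least 267-fold higher, and replicate 3 by itself at least 58.6-fold higher.

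sparc, which encodes an abundant matrix glycoprotein also called osteonectin, had 196 and 149 CPM in cyclopamine crest, 682 and 999 CPM in slow muscle and 114 and 88.3 CPM in untreated crest. The cyclopamine libraries stood above the untreated ones, by 1.71-fold in the means. Unlike the fibronectin genes, its higher cyclopamine value was that of replicate 3.

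tnc had 80.4 and 116 CPM in cyclopamine crest, 1681 and 1490 CPM in slow muscle and 81.4 and 76.9 CPM in untreated crest. It was the sole member whose cyclopamine and untreated libraries overlapped. Its fitted log2 difference between them was 0.31, and 0.02 without cyclopamine replicate 4.

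Across the 7 members, 6 had both cyclopamine libraries above both untreated libraries, where 14.6% of the 17701 tested genes did. The members were chosen from that contrast, so nothing is read from this count. Of the genes named as the reason for the choice, fn1b had the smallest ratio of means among those with untreated counts, at 5.29-fold, and of the other members fn1a had the highest, at 2.16-fold, and tnc the lowest, at 1.24-fold. In edgeR's quasi-likelihood test of cyclopamine against untreated crest 0% of genes were called higher and 0% lower at an adjusted p of 0.05, with 767 genes at an unadjusted p under 0.05. DESeq2 called 158 genes (0.961%) higher and 153 (0.930%) lower. With a lone cyclopamine library, assumed to vary like the other groups, edgeR called 398 genes higher and 968 lower without replicate 3, and 10 higher and 7 lower without replicate 4.

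Markers of other tissues also differed between cyclopamine and untreated crest, some lists being higher and others lower. The endothelial list summed to 110 and 206 CPM in cyclopamine crest against 229.8 and 227 CPM in untreated crest, and the epidermal list to 1784 and 791 CPM against 1233 and 1065 CPM. Both cyclopamine libraries stood below both untreated ones in 3 of 8 tested endothelial, 4 of 5 myeloid and 4 of 6 erythroid genes (16.6% of all genes). The sums of the last 2 lists overlapped between the groups. The myeloid list summed to 110 and 215 CPM in cyclopamine crest against 161 and 330 CPM, and the erythroid list to 105 and 35.9 CPM against 96.9 and 148 CPM. Most of the myeloid sum in cyclopamine crest was csf1ra, at 94.9 and 215 CPM, against 130 and 127 CPM in untreated crest and 0.949 and 0 CPM in slow muscle. The 4 tested myeloid genes that stood below were the others of the list. The 9 notochord and floor plate markers summed to 123 and 4367 CPM in cyclopamine crest against 101 and 92.5 CPM in untreated crest. In cyclopamine replicate 4, col2a1a, the notochord sheath collagen gene, stood at 3584 CPM, the notochord regulator tbxta at 173 CPM and the signal gene shha at 79.0 CPM, while noto and tbxtb were at 0. That library also had the higher level of the group for 5 of the 7 members (fn1a, fn1b, fstl1b, loxl1 and tnc). The share of all genes higher in replicate 4 than in replicate 3 was not taken, so nothing is read from this count. The part of the notochord and floor plate transcripts in the result was not tested. In cyclopamine replicate 3 the notochord and floor plate sum, 123 CPM, also lay above both untreated sums. Most of it was col2a1a, at 91.8 CPM against 77.6 and 59.3 CPM in untreated crest. There shha had 6.39 CPM against 3.16 and 0.177 CPM, while tbxta had 6.02 CPM against 6.91 and 6.98 CPM. In the same library fn1b was at 157 CPM and fstl1a at 46.1 CPM.

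The 8 somite and presomitic markers summed to 111 and 36.5 CPM in cyclopamine crest against 21.1 and 18.0 CPM in untreated crest. In replicate 4 only tbx16, tbx6, msgn1 and meox1 of them had counts. The 11 sclerotome and fibroblast markers summed to 301 and 229.8 CPM against 150.5 and 118 CPM, with pax1a and pax9 at 0 in all 4 crest libraries. Most of that sum was the growth factor receptor gene pdgfra, with 192 and 164 CPM in cyclopamine crest against 78.2 and 77.4 CPM in untreated crest. The matrilin gene matn4 had 45.0 and 38.7 CPM against 23.4 and 16.9 CPM. Of the 10 tested genes of the list, 3 had both cyclopamine libraries above both untreated ones (14.6% of all genes). In 2, foxc1a (3.53 and 9.02 CPM against 16.4 and 9.70 CPM) and twist1b (3.12 and 0 CPM against 6.48 and 3.79 CPM), they stood below (16.6% of all genes). Fast muscle markers, 10 rows for 9 symbols, summed to 323 and 229.9 CPM in cyclopamine crest against 55.6 and 68.9 CPM in untreated crest. Both cyclopamine libraries stood above both untreated ones in 4 of the 10 rows (14.6% of all genes) and below in 0 (16.6% of all genes). In replicate 4 most of the sum was tnnt3b, at 139 CPM, while mylpfa had 0.658 CPM against 17.8 and 23.4 CPM in untreated crest. The part of these lists in the members' levels was not tested. In bulk samples a change in the share of a cell type and a change in RNA per cell cannot be told apart. For slow fibres, smyhc1, the main slow myosin gene, had 0.951 and 0 CPM in cyclopamine crest against 47.1 and 59.0 CPM in untreated crest, while cav3, which encodes a caveolin of muscle membranes, had 11.2 and 17.1 CPM against 0 in both untreated libraries. The slow muscle list summed to 115 and 219.8 CPM in cyclopamine crest against 194 and 198 CPM, most of it prdm1a.

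**Figure D3:**
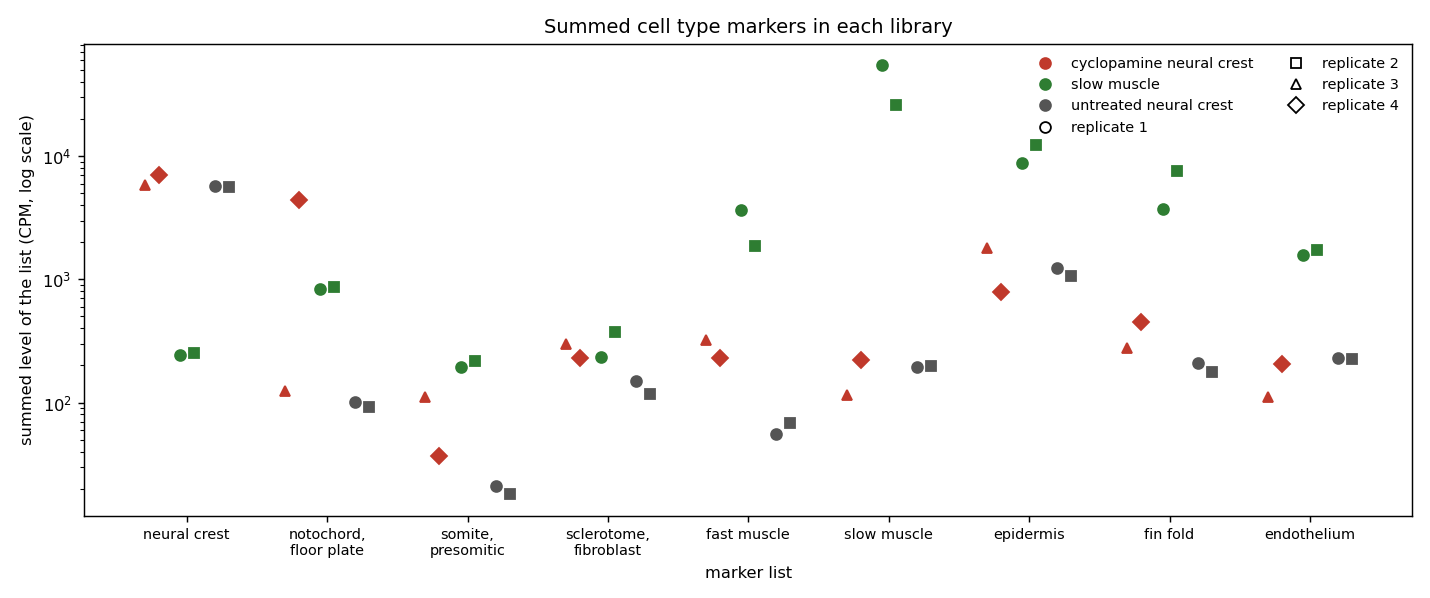
Summed level of each list of cell type markers (vertical axis, CPM on a log scale) in each library, coloured by group and shaped by replicate. Cyclopamine replicate 4 stands at 4367 CPM for the notochord and floor plate list, against 123 CPM in replicate 3 and 101 and 92.5 CPM in untreated crest, and the slow muscle libraries stand highest for epidermis, fin fold and endothelium.

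The rule that chose the members did not name the contrast of slow muscle with untreated crest. It did use the same untreated libraries, and earlier results of these data were known. The p-values of the members are therefore not independent of their choice. All 7 genes had higher levels in both slow muscle libraries, where 33.6% of tested genes did. In edgeR's quasi-likelihood test, adjusted by the Benjamini-Hochberg method over 17701 genes, 5 members were called higher, against 1.67% of all genes (296) called higher and 0.876% (155) called lower. All 7 passed the filter on low counts, loxl1 only through the groups in which it had counts. The median fitted log2 difference of the members was 3.06, also with loxl1 taken at its counting floor, beside 0.08 over all genes tested. Over all genes edgeR called 67 higher and 41 lower without untreated replicate 1, 64 and 44 without untreated replicate 2, and 172 and 109 without slow muscle replicate 1. Without cyclopamine replicate 3 or 4 it called 1943 and 1991 higher, and 990 and 1022 lower. With upper quartile scaling the calls over all genes were 266 higher and 242 lower.

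fstl1a differed most among the members with counts in untreated crest, with a slow muscle mean of 248 ± 7.22 CPM against an untreated mean of 6.52 ± 0.0998 CPM (SD, n = 2 each), or 38.1-fold. Its log2 fold change was 5.25 ± 0.33 (SE; edgeR adjusted p = 0.0119). tnc averaged 1586 ± 135 CPM in slow muscle against 79.2 ± 3.21 CPM in untreated crest (edgeR adjusted p = 0.0132, fitted log2 difference 4.32 ± 0.36 SE). Zebrafish tenascin C is known from the boundaries between myotomes, where muscle fibres attach. sparc averaged 841 ± 224 CPM against 101 ± 18.0 CPM (edgeR adjusted p = 0.0227, fitted log2 difference 3.06 ± 0.37 SE).

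The remaining members differed by less or passed narrowly. fn1b averaged 246 ± 34.3 CPM in slow muscle against 44.5 ± 4.96 CPM in untreated crest (edgeR adjusted p = 0.0481, fitted log2 difference 2.47 ± 0.42 SE). fstl1b averaged 1170 ± 134 CPM against 327 ± 31.3 CPM (edgeR adjusted p = 0.0425, fitted log2 difference 1.84 ± 0.30 SE). fn1a averaged 276 ± 15.4 CPM against 81.7 ± 21.2 CPM and did not pass (edgeR adjusted p = 0.0750, fitted log2 difference 1.76 ± 0.37 SE). loxl1, at 14.7 ± 10.9 CPM against 0, did not pass either (edgeR adjusted p = 0.0755); its mean was at least 87.3-fold higher with the untreated libraries at 3 counts each, and slow muscle replicates 1 and 2 by themselves at least 41.2-fold and 133-fold. DESeq2 called all 7 higher, where it called 11.5% of genes higher and 5.54% lower. Nothing is read from a call of loxl1 in any fit, since it had no counts in untreated crest and passed the filter in edgeR only through the other groups. Without untreated replicate 1 or untreated replicate 2, fstl1a alone passed in edgeR (adjusted p = 0.0407 and 0.0446), and tnc was at 0.0632 and 0.0701 and sparc at 0.114 and 0.149. Without slow muscle replicate 1 there were 4 calls, since fn1b (0.105) and fstl1b (0.112) did not pass while loxl1 (0.0472) did. Without slow muscle replicate 2 there were 3 calls, since fn1b (0.0738) and fstl1b (0.153) did not pass. Without either cyclopamine replicate all 7 passed.

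**Figure D4:**
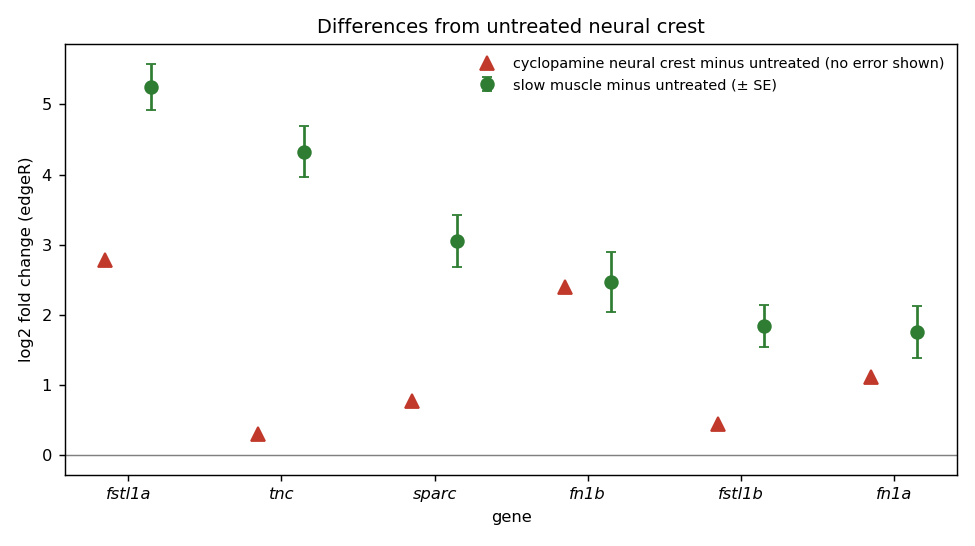
Fitted log2 fold change (vertical axis) against untreated neural crest for the 6 members with counts there; red triangles are cyclopamine crest, given without an error since the members were chosen from that contrast, and green circles are slow muscle with the SE from edgeR. fn1b stands at 2.40 and 2.47 in cyclopamine crest and slow muscle, while tnc stands at 0.31 in cyclopamine crest and 4.32 in slow muscle.

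The slow muscle sort also held transcripts of other tissues. The 9 epidermal markers summed to 8825 and 12397 CPM in slow muscle against 1233 and 1065 CPM in untreated crest, and all 9 were detected in both slow muscle libraries. The fin fold list, 8 rows for 7 symbols, summed to 3757 and 7562 CPM against 209 and 176 CPM. Its actinodin gene and1, which encodes a protein of the fin fold's fibrous rods, stood at 387 and 1342 CPM against 6.43 and 10.8 CPM. The 8 endothelial markers summed to 1577 and 1744 CPM against 229.8 and 227 CPM. The fast muscle list summed to 3660 and 1869 CPM against 55.6 and 68.9 CPM, and the notochord and floor plate list to 828 and 859 CPM against 101 and 92.5 CPM. Most of the notochord and floor plate sum was ntd5, at 650 and 725 CPM, while col2a1a had 83.1 and 56.0 CPM against 77.6 and 59.3 CPM. Both slow muscle libraries stood above both untreated ones in 4 of its 8 tested genes, where 33.6% of all genes did, and below in 0. The somite and presomitic list summed to 194 and 217 CPM against 21.1 and 18.0 CPM, and the sclerotome and fibroblast list to 234 and 374 CPM against 150.5 and 118 CPM. Of the 10 tested sclerotome and fibroblast genes, both slow muscle libraries stood above both untreated ones in 4 (33.6% of all genes). They stood below in 1 (27.3% of all genes), pdgfra, at 38.3 and 43.6 CPM against 78.2 and 77.4 CPM. Among those above, matn4 had 119 and 201 CPM against 23.4 and 16.9 CPM. The pronephros list summed to 174 and 317 CPM against 24.2 and 20.6 CPM. Their part in the members' levels was not tested, so the levels do not show which cells of the sort expressed the 7 genes.

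Slow muscle and cyclopamine crest were set side by side without a test, since the cyclopamine values entered the choice of members. In 5 members both slow muscle libraries stood above both cyclopamine libraries, where 31.1% of tested genes did. The means differed 16.2-fold for tnc, 5.52-fold for fstl1a, 4.88-fold for sparc, 2.62-fold for fstl1b and 1.56-fold for fn1a. fn1b was level in the means (1.04-fold) and loxl1 was lower in slow muscle (0.327-fold), with overlapping libraries in both cases.

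Other matrix genes were described from 7 lists with 107 symbols, of which 100 were found in the table, 3 of them through another symbol, and 79 were tested. In cyclopamine against untreated crest edgeR called none of the 79, with 7 higher and 1 lower at an unadjusted p under 0.05. Over all 17701 genes tested, 767 had such a p in either direction. DESeq2 called 1 of the 79 higher, where it called 0.961% of all genes higher. Both cyclopamine libraries stood above both untreated ones in 23 of the 79 genes (14.6% of all genes) and below in 5 (16.6% of all genes). Their median log2 difference was 0.70, also with genes at 0 taken at 3 counts per library, beside 0.00 over all genes tested. The share of all genes was not taken for a single library, so nothing is read from the next counts. Cyclopamine replicate 3 by itself stood above both untreated libraries in 40 of the 79 genes and below both in 11. Without cyclopamine replicate 3 edgeR called 9 of them higher and 3 lower.

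The 7 genes higher at an unadjusted p belonged to several lists and were named after their values were seen. emilin3a, an elastin interface protein gene expressed in the notochord, had 28.1 and 409 CPM in cyclopamine crest against 6.59 and 5.15 CPM in untreated crest, and was the gene called by DESeq2 (adjusted p = 0.000265; edgeR adjusted p = 0.835). hapln1a, whose product links hyaluronan to proteoglycans, had 91.8 and 130 CPM against 52.2 and 53.3 CPM. The thrombospondin genes thbs4b (65.4 and 37.2 CPM against 11.6 and 24.8 CPM) and thbs3a (32.2 and 23.6 CPM against 11.7 and 10.1 CPM) had their higher value in cyclopamine replicate 3. The fibulin gene fbln2 had its higher value in replicate 4, with 16.4 and 62.4 CPM against 8.59 and 11.7 CPM. The same held for the spondin gene spon1b (14.1 and 69.5 CPM against 8.91 and 4.50 CPM) and the lysyl oxidase gene loxl3b (18.9 and 74.7 CPM against 7.01 and 12.2 CPM).

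By abundance, the fibrillin gene fbn2b had 658 and 1998 CPM in cyclopamine crest against 653 and 616 CPM in untreated crest, so that replicate 4 alone stood far above. The basement membrane proteoglycan genes hspg2 (182 and 555 CPM against 163 and 185 CPM) and agrn (364 and 601 CPM against 314 and 258 CPM) likewise had their higher value in replicate 4. efemp2a had 84.1 and 34.8 CPM against 30.9 and 43.2 CPM, and postnb had 316 and 287 CPM against 342 and 456 CPM. egfl6 had 26.9 and 0.0470 CPM against 5.69 and 5.68 CPM, so that its cyclopamine libraries lay on opposite sides of the untreated ones.

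A further list held genes whose products bind fibronectin or link its receptors to the cytoskeleton. Both cyclopamine libraries stood above both untreated libraries in 2 of the 17 tested and below them in 1, where 14.6% and 16.6% of all genes did, and edgeR called none, with 1 lower at an unadjusted p under 0.05 and none called by DESeq2. sdc4, a syndecan that binds fibronectin's heparin site, had 354 and 325 CPM in cyclopamine crest against 707 and 696 CPM in untreated crest (edgeR adjusted p = 0.835, DESeq2 adjusted p = 0.0773). The beta 1 integrin gene itgb1a had 491 and 1017 CPM against 515 and 444 CPM. The alpha 5 integrin gene itga5, whose product pairs with beta 1 to bind fibronectin, had 75.4 and 82.1 CPM against 83.3 and 66.4 CPM and is named outside the rule.

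The closer relatives of the members were mostly low. Of the 6 other lysyl oxidase genes tested, 4 stood above both untreated libraries, where 14.6% of all genes did, with none called by edgeR, 1 at an unadjusted p under 0.05 and none by DESeq2. loxl3b was among the 4, and loxl3a had 0 and 43.7 CPM in cyclopamine crest against 26.6 and 29.8 CPM in untreated crest. Also among the 4 was loxl5b, named outside the rule. It had 5.57 and 84.7 CPM in cyclopamine crest against 0 and 2.37 CPM in untreated crest. Of 6 tested Sparc relatives none stood apart from the untreated libraries, and spock3 had 22.9 and 0 CPM against 8.22 and 11.3 CPM, while smoc2 had 17.5 and 0 CPM against 1.90 and 0 CPM. tnn, another tenascin gene, had 31.3 and 27.5 CPM against 49.0 and 27.4 CPM, and tnr had 0 and 11.5 CPM against 1.69 and 0 CPM.

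In slow muscle against untreated crest edgeR called 5 of the 79 higher and none lower, where it called 1.67% and 0.876% of all genes. At an unadjusted edgeR p under 0.05 there were 29 higher and 3 lower, and DESeq2 called 26 higher and 3 lower. Over all 17701 genes tested, 3390 had an unadjusted edgeR p under 0.05 in either direction. DESeq2 called 11.5% of all genes higher and 5.54% lower. Both slow muscle libraries stood above both untreated ones in 53 of the 79 (33.6% of all genes) and below in 8 (27.3% of all genes). The fibulin-related genes efemp2a (3523 ± 380 against 37.1 ± 8.66 CPM, edgeR adjusted p = 0.0140) and efemp2b (302 ± 66.0 against 23.7 ± 7.05 CPM, edgeR adjusted p = 0.0376) rose. So did the hyaluronan-binding proteoglycan gene vcana (226 ± 97.9 against 5.57 ± 3.41 CPM, edgeR adjusted p = 0.0230), hapln1a (236.1 ± 0.526 against 52.7 ± 0.788 CPM, edgeR adjusted p = 0.0336) and the adhesion adaptor gene pxna (133 ± 3.16 against 28.5 ± 0.678 CPM, edgeR adjusted p = 0.0323). The median log2 difference of all 79 was 1.67, also with genes at 0 taken at 3 counts per library, beside 0.08 over all genes. In the other 4 lists edgeR called no gene, and the most abundant were named. Of the lysyl oxidase genes, loxl3b had 34.6 and 14.9 CPM in slow muscle against 7.01 and 12.2 CPM in untreated crest, while loxl3a was at 0 in both slow muscle libraries against 26.6 and 29.8 CPM (edgeR adjusted p = 0.219, DESeq2 adjusted p = 3.50e-06, lower). Of the tenascin genes, tnn had 56.3 and 8.75 CPM against 49.0 and 27.4 CPM, and tnr had 0 and 3.76 CPM against 1.69 and 0 CPM. Of the Sparc relatives, smoc2 had 23.9 and 36.7 CPM against 1.90 and 0 CPM, and spock3 had 9.28 and 6.80 CPM against 8.22 and 11.3 CPM. Among matricellular genes postnb, a periostin gene, had 364 and 409 CPM in slow muscle against 342 and 456 CPM in untreated crest, and egfl6 had 519 and 924 CPM against 5.69 and 5.68 CPM without passing (edgeR adjusted p = 0.163). The calls fell to 1 without untreated replicate 1, 2 without untreated replicate 2, and 3 without either slow muscle replicate, and numbered 28 and 30 without cyclopamine replicates 3 and 4.

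The genes whose levels ran most like those of 3 members over the 6 libraries were found by the root-mean-square difference of log2(CPM + 1) profiles, each centred on its own mean, among 9835 genes with a symbol and a mean of at least 10 CPM. The libraries within a group share their cell type, and no test was made. For fn1b these were scube1, of a family of secreted proteins that help release Hedgehog ligands, at 0.21, the basement membrane collagen gene col4a5 at 0.27 and the deubiquitinase gene zranb1b at 0.28, where the median gene was at 1.39. scube1 had 13.3 and 25.6 CPM in cyclopamine crest, 19.4 and 21.5 CPM in slow muscle and 1.69 and 3.14 CPM in untreated crest. For fstl1a they were kank1a (0.32), the semaphorin gene sema3e (0.39) and slc35e4 (0.39), against a median of 2.16. kank1a had 34.9 and 49.5 CPM in cyclopamine crest, 313 and 226 CPM in slow muscle and 10.3 and 7.57 CPM in untreated crest. For loxl1 the nearest gene was emilin3a (0.71), followed by CR381618.1 (0.82) and si:ch211-169p10.1 (0.98), against a median of 2.45. Among the members themselves fn1a lay closest to fstl1b (0.41) and fn1b closest to fn1a (0.52), while loxl1 lay at least 1.31 from every other member.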

How the data were processed

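Zebrafish trunk neural crest and slow-twitch muscle, sorted by fluorescence, were profiled by stranded polyA RNA-seq. The authors deposited whole read counts per Ensembl gene; per the submitters' processing notes the tools were STAR, featureCounts (Subread) and DESeq2. No source used here gives the genome build, annotation or strand setting. The deposited log2 values equal log2(count / DESeq2 size factor + 1) recomputed from the counts, with a largest difference of 4.97e-14, and were not used further.

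The 7 members and the gene lists were chosen with earlier results of these data known. Counts of all 6 libraries entered 1 edgeR quasi-likelihood fit with 3 groups (edgeR 4.0.16, R 4.3.3; TMM scaling; filterByExpr with a minimum count of 10 and a minimum total of 15). This kept 17701 of 32520 genes, of which 11265 had no counts in any library. P-values were adjusted by the Benjamini-Hochberg method over all tested genes and called below 0.05; tests were two-sided. The edgeR procedure was also run on simulated counts with changes planted in slow muscle only, and the outcome is not given here. The cyclopamine contrast was not covered by it. SEs are the log2 difference over the square root of the quasi-likelihood F. Alternatives were DESeq2 1.42.0, other filters and scalings, pairwise fits, a replicate block and leaving out each library.

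All members were named. From each list of other matrix genes up to 4 called genes with the largest log2 difference were named in a contrast, or with no call the 2 most abundant. The 3 genes nearest in profile were named for fn1b, fstl1a and loxl1. Genes outside this rule are marked as such in the text.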

Additional observations from a re-analysis of the deposited data

How the results depend on the processing

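In cyclopamine against untreated crest, where edgeR called 0 genes in either direction, it called 8 higher and 13 lower with no filter on low counts, and DESeq2 called 158 higher and 153 lower. Leaving out 1 library gave 0 to 398 higher and 0 to 968 lower. Of the other matrix genes DESeq2 called 1 higher, and leaving out 1 library gave 0 to 9 higher and 0 to 3 lower. In slow muscle against untreated crest, with 296 higher and 155 lower, the counts were 981 and 427 with no filter, 1838 and 889 in DESeq2, and 1608 and 760 in a fit of only these groups. Upper quartile scaling gave 242 lower and moved the median log2 difference of all genes to -0.16, and RLE scaling to 0.16, from 0.08 with TMM. Leaving out 1 library gave 64 to 1991 higher and 41 to 1022 lower. The lowest count of higher genes came without untreated replicate 2, and the highest without cyclopamine replicate 4. Of the other matrix genes, with 5 higher and 0 lower, 17 and 2 were called with no filter, 26 and 3 in DESeq2, and 21 and 4 in the fit of only these groups. Leaving out 1 library gave 1 to 30 higher and 0 to 4 lower.

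Of the members, 5 were called higher in slow muscle. Upper quartile scaling called 3 of them (266 higher over all genes), RLE 4 (325), and the filter at 50 counts 5 (328). DESeq2 (1838), no filter (981) and the fit of only these groups (1608) called 7. The calls over all genes moved too, so nothing is read about the members from these changes. Leaving out 1 library gave 1 to 7. No member changed direction in slow muscle against untreated crest in any alternative run. Both slow muscle libraries stood above both untreated ones in all 7, so leaving out 1 library could hardly change it. The 6 members other than loxl1 also kept their direction in cyclopamine against untreated crest, where no alternative value was taken for loxl1. The members were chosen from that contrast, so nothing is read from this. With the replicate number as a block in the 4 slow muscle and untreated libraries, edgeR called 1483 genes higher and 570 lower. It called 26 and 4 of the other matrix genes, and all 7 members, with fn1a at an edgeR adjusted p of 0.0167 and loxl1 at 0.0414. Nothing is read from the call of loxl1, which had no counts in untreated crest. The main fit did not treat same-numbered libraries as pairs, and the labels do not say whether they are. Their deviations from the group means correlated at 0.0148 over genes. With 2 libraries a group this is a single value, which cannot show whether the libraries are paired. No paired analysis was possible for the cyclopamine contrast because its groups share no replicate number. With a pseudocount of 5 the gene nearest fn1b was si:ch211-169p10.1 (0.23) and that nearest loxl1 was CR381618.1 (0.33), while kank1a stayed nearest fstl1a (0.27). The causes of these differences were not tested. With 2 libraries a group the spread is poorly known, and levels near 3 counts are at the limit of depth.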
